A study of Mus musculus with 4 samples.

Results

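The 8 genes described here are secreted factors of the angiopoietin, angiopoietin-like and vascular endothelial growth factor (VEGF) families, *Angpt1*, *Angptl1*, *Angptl2*, *Angptl4*, *Vegfa*, *Vegfc* and *Pgf*, together with the endothelial proteoglycan gene *Esm1*. They were taken by symbol, and all 8 were found among the 28006 features of the count matrices. The group was chosen by measured values, since *Angptl1* was known from these counts to be low in reticular cells of ablated femurs, so its values there are a description and carry no test.

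VEGF ligands bind receptor tyrosine kinases on endothelial cells, where VEGFR2 (*Kdr*) drives blood vessel growth and VEGFR3 (*Flt4*) binds VEGF-C. Angiopoietin 1 is the ligand that activates the Tie2 receptor (*Tek*), and in bone marrow it is made by perivascular stromal cells. The angiopoietin-like proteins share the fold of the angiopoietins but do not bind Tie2, and some act in lipid metabolism, as does ANGPTL4, an inhibitor of lipoprotein lipase.

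Cxcl12CE-tdTomato+ cells were sorted from femurs of Cxcl12-iCreER; R26R-tdTomato mice, all of which had marrow ablation in one femur and had received tamoxifen 7 days before it. The ablated femur (ABL) and the contralateral femur (CONT), which was not ablated, were taken 7 days after the surgery, with 1 library for each condition in each of 2 replicates. The recombinase is driven by a *Cxcl12* bacterial artificial chromosome transgene, replicate 1 was pooled from several mice, and replicate 1 used version 2 and replicate 2 version 3 of the droplet chemistry, so chemistry and replicate cannot be told apart. The age of the mice is not given in the labels.

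The libraries held between 22889380 and 44784072 unique molecular identifiers (UMIs), and 1459 to 3433 cells were called in each, with a median of 5714 to 12896 UMIs. Levels below are in CPM, which is a gene's UMIs scaled by the total UMIs of all cells of a class in a library, and the order of libraries is always CONT and ABL of replicate 1, then CONT and ABL of replicate 2. Cells named reticular-like, a name given from these markers, had UMIs for 8 of 8 reticular markers in every library (summed level 21892 to 26579 CPM). Summed endothelial markers reached 11.3 to 37.6 CPM in them. Markers of nearby classes were higher, with 4358, 5623, 7486 and 4473 CPM for osteoblast and 1007 to 1249 for periosteal markers. Pre-osteoblast markers had 1434, 3811, 1481 and 3083 CPM, the higher in ABL of both replicates. Markers of blood cells were also counted in reticular-like cells, with 11275, 17181, 421 and 441 CPM for 9 of 9 granulocyte markers and 12385, 9852, 260 and 2037 for 7 erythroid markers. The part of all these markers in the results was not tested. The libraries differed in the sex of their cells: *Xist* was detected in 47.0%, 79.6%, 71.4% and 0.294% of reticular-like cells. Y-linked UMIs were detected in 30.9%, 13.7%, 26.9% and 63.2% of them. CONT and ABL of replicate 2 therefore do not have the same make-up of mice. In replicate 1 both shares also differed between CONT and ABL, so a matched make-up is not shown there either. CONT and ABL shared 5 cell barcodes in replicate 1 and 1 in replicate 2. Reticular-like cells numbered 1165, 417, 1976 and 340, and other mesenchymal cells 131, 264, 77 and 1469.

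All 8 genes are protein coding. On the mouse genome build GRCm38 (GENCODE M21), *Angpt1* lies on chr15:42424723-42676977 (minus strand), *Angptl1* on chr1:156838562-156861078 (plus), *Angptl2* on chr2:33216069-33247717 (plus) and *Angptl4* on chr17:33773750-33781830 (minus). *Vegfa* lies on chr17:46016993-46032369 (minus), *Vegfc* on chr8:54077606-54187096 (plus), *Pgf* on chr12:85166635-85177790 (minus) and *Esm1* on chr13:113209659-113218098 (plus). RefSeq promoters (GRCm38.p6) were matched for 6 of the 8 genes. The 250 bases before the start site are shown for *Esm1*, the only member called below, for *Angptl2*, which was high outside reticular-like cells, and for *Vegfa*, the best known ligand of the group. They were searched on both strands for the E-box CANNTG, the EBF core CCCNNGGG (EBF factors mark reticular cells), the hypoxia response element core ACGTG and the TATA box TATAAA, and capitals mark every match.
Esm1, chr13:113209409-113209658, plus strand: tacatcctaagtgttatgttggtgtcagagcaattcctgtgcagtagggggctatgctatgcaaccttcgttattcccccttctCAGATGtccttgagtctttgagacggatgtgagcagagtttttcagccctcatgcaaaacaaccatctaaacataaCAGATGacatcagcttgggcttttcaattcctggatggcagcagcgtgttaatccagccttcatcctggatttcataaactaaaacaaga
Angptl2, chr2:33215711-33215960, plus strand: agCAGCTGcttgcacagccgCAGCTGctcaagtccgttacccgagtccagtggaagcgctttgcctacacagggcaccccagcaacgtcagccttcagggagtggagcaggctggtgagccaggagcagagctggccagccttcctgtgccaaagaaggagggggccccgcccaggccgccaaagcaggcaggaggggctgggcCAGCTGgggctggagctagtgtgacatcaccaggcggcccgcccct
Vegfa, chr17:46032378-46032627, minus strand: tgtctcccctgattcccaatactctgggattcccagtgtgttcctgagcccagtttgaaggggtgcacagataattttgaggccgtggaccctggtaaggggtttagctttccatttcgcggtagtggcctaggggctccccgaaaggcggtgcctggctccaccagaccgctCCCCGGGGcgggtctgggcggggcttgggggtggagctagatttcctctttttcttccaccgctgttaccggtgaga
The *Esm1* window held 2 E-boxes, 166 and 90 bases before the start site, the *Angptl2* window 3 E-boxes, and the *Vegfa* window shown 1 EBF core, 77 bases before the start. The window of another *Vegfa* start site (chr17:46025164-46025413) overlaps an annotated exon and is not printed, and it held 2 E-boxes and 1 hypoxia core, the only hypoxia core found for a member. Of 32851 promoter windows, 66.2% held an E-box, 11.8% an EBF core, 16.6% the hypoxia core and 12.4% the TATA box. A match is a string of letters and not a shown binding site.

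*Angptl1*, which encodes an angiopoietin-like secreted protein, was lower in ABL than in CONT reticular-like cells of both replicates. Replicate 1 held 65.1 CPM (CONT) and 14.9 CPM (ABL), whereas replicate 2 held 154 CPM (CONT) and 10.0 CPM (ABL), from 382, 48, 4058 and 27 UMIs. Both ABL values lay below both CONT values. The fitted log2 fold change was -3.09. Within replicates the log2 ratio of ABL over CONT was -1.59 and -3.04 (pseudocount of 10 CPM), so the drop was the larger in replicate 2. The pseudocount shrinks both ratios, so they are not on the scale of the fitted value.

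After every cell was thinned to 2000 UMIs, with no cell left out, an *Angptl1* UMI was found in 10.7% (CONT) and 3.12% (ABL) of reticular-like cells of replicate 1 and in 22.4% (CONT) and 2.06% (ABL) of those of replicate 2. Without thinning, the shares were 22.0%, 8.87%, 61.7% and 6.76%. Myeloid cells, which should lack the gene, gave 0.343%, 0.202%, 0% and 0.909% after thinning. The median reticular-like cell held 4510, 6721, 12758 and 7473 UMIs before this step and the median myeloid cell 5929, 6744, 9768 and 9438. Droplets with at most 300 UMIs, which hold free RNA, carried 17.2, 10.2, 85.3 and 64.7 CPM of *Angptl1*. The ABL reticular-like level of replicate 2 lay below the free RNA level of that library, and that of replicate 1 just above it.

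The low level was seen in each reticular-like cluster that had at least 20 cells of both conditions. The splits given here reuse the counts that chose the gene, so they describe its low level and add no separate support. In replicate 1, clusters 0 to 4 held between 57.2 and 69.7 CPM of *Angptl1* in CONT and between 5.0 and 30.3 in ABL. In replicate 2, clusters 0, 1, 2, 5 and 14 held between 91.1 and 217 CPM in CONT and between 0.0 and 23.2 in ABL. Clusters 0 and 1 were the largest of the class in each of the 4 libraries, and clusters 6 and 11 of replicate 2 had enough cells only in CONT (100 and 55.7 CPM). Cells with an *Spp1* UMI, a matrix protein gene, had 52.8, 11.5, 109 and 9.05 CPM of *Angptl1* after thinning, and cells without had 61.8, 20.1, 155 and 21.0. The ABL values came from only 5 and 4 UMIs in cells with an *Spp1* UMI and from 8 and 5 in cells without. Cells with a Y-linked UMI and no *Xist* UMI had 57.8, 7.35, 87.5 and 7.86 CPM, from 92, 2, 575 and 14 UMIs in 298, 44, 489 and 214 cells. The ABL values were the lower ones, but that of replicate 1 rests on 2 UMIs. In CONT of replicate 2, *Xist* cells had 182 CPM.

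**Figure D1:**
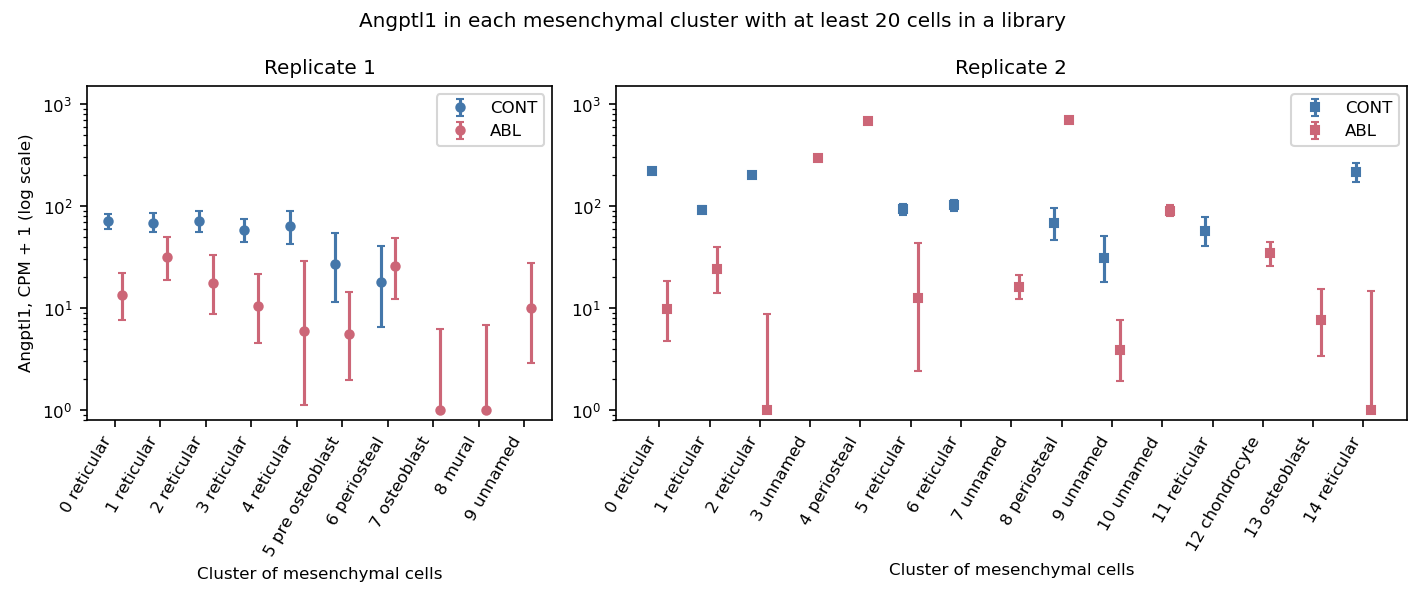
*Angptl1* level (CPM + 1, log scale) in every mesenchymal cluster with at least 20 cells in a library, replicate 1 at the left and replicate 2 at the right, with 95% exact Poisson intervals as bars. In reticular clusters ABL points lie below CONT points, whereas the periosteal clusters 4 and 8 of replicate 2 reach 681 and 694 CPM in ABL.

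The 7 other members did not pass the threshold in reticular-like cells. The test was edgeR's quasi-likelihood test on UMI sums with the replicate as a block, adjusted over 11468 genes, of which 3.95% were called (2.14% higher and 1.81% lower in ABL), and 0 of the 7 members were called. With no block, the adjusted p was 0.999951 for each of the 7, and 0 genes of any kind were called, against 327 at an unadjusted p under 0.05. The median log2 fold change of all 8 members was -0.50, with *Angptl1* among them, and that of all genes tested was -0.0033. With the block, this fit had 1 residual degree of freedom and a prior of 61.3 degrees of freedom. Its SEs and p-values therefore rest mostly on the trend of all genes with expression level. The prior also outweighed the residual degree of freedom in the other fits of ABL against CONT. An SE given with edgeR is that of the same test and not a spread between libraries.

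*Esm1*, best known as a product of sprouting endothelial tip cells, was abundant in reticular-like cells. Replicate 1 gave 1376 CPM (CONT) and 907 (ABL), and replicate 2 gave 1036 (CONT) and 522 (ABL). Both ABL values lay below both CONT values. The log2 fold change was -0.89 ± 0.40 (SE, n = 2 libraries per condition, edgeR adjusted p = 0.28), and of the alternatives only DESeq2 put it past the threshold (adjusted p = 0.043). An *Esm1* UMI was found in 88.2%, 74.6%, 75.6% and 54.7% of thinned cells, against 8.15%, 4.84%, 4.24% and 0.909% of myeloid cells. Reticular-like cells with a Y-linked UMI and no *Xist* UMI had 1357, 581, 768 and 546 CPM of *Esm1*.

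*Vegfa* encodes the main ligand of VEGFR2. Its levels in reticular-like cells were 396, 418, 717 and 377 CPM, so that CONT of replicate 2 stood above the other libraries and the groups overlapped. The log2 fold change was -0.52 ± 0.36 (SE, edgeR adjusted p = 0.58). Cells with a Y-linked UMI and no *Xist* UMI had 364, 338, 759 and 399 CPM of *Vegfa*. The gene varied between clusters, and cluster 2 of replicate 1 (led by *Igfbp5* and *C4b*) held 763 CPM (CONT) and 843 (ABL) against 160 and 146 for cluster 1 (led by *Adipoq*).

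*Vegfc*, the VEGFR3 ligand of lymphatic growth, was level across the libraries at 158, 157, 174 and 193 CPM. Its log2 fold change was -0.03 ± 0.28 (SE, edgeR adjusted p = 0.99) and its sign changed with the scaling. *Pgf* encodes placental growth factor, a VEGFR1 ligand, and stood at 48.7, 29.8, 36.1 and 29.2 CPM. Both ABL values were below both CONT values, and the log2 fold change of -0.60 ± 0.24 (SE, edgeR adjusted p = 0.18) did not pass. In cells with a Y-linked UMI and no *Xist* UMI, *Pgf* had 55.9, 91.9, 43.2 and 23.0 CPM, so ABL of replicate 1 was the higher. That ABL value came from 25 UMIs in 44 cells.

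*Angpt1* was the only member with a higher value in ABL in both replicates, at 84.8 and 115 CPM in replicate 1 and 163 and 200 in replicate 2. The groups overlapped, since ABL of replicate 1 lay below CONT of replicate 2. The log2 fold change was 0.28 ± 0.27 (SE, edgeR adjusted p = 0.73).

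*Angptl4*, a target of fatty acid and hypoxia sensing factors, moved in opposite directions. Replicate 1 held 402 CPM (CONT) and 196 (ABL), and replicate 2 held 289 (CONT) and 345 (ABL). The log2 fold change was -0.48 ± 0.34 (SE, edgeR adjusted p = 0.59). *Angptl2*, a secreted factor of stromal and fat tissue, also went opposite ways, with 28.1, 40.0, 25.8 and 17.03 CPM (log2 fold change -0.11 ± 0.26 (SE), edgeR adjusted p = 0.92). Free RNA carried 18.5 to 105 CPM of *Angptl2*, with a mean of 47.3 CPM against 27.7 CPM in reticular-like cells. That limits what its values here can show. In cells with a Y-linked UMI and no *Xist* UMI, *Angptl4* had 500, 129, 379 and 326 CPM, lower in ABL of both replicates. *Xist* cells in CONT of replicate 2 had 252 CPM of it. *Angptl2* still went opposite ways in the Y-linked cells (19.5, 40.4, 28.8 and 20.2 CPM). The part of sex in these values was not tested.

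**Figure D2:**
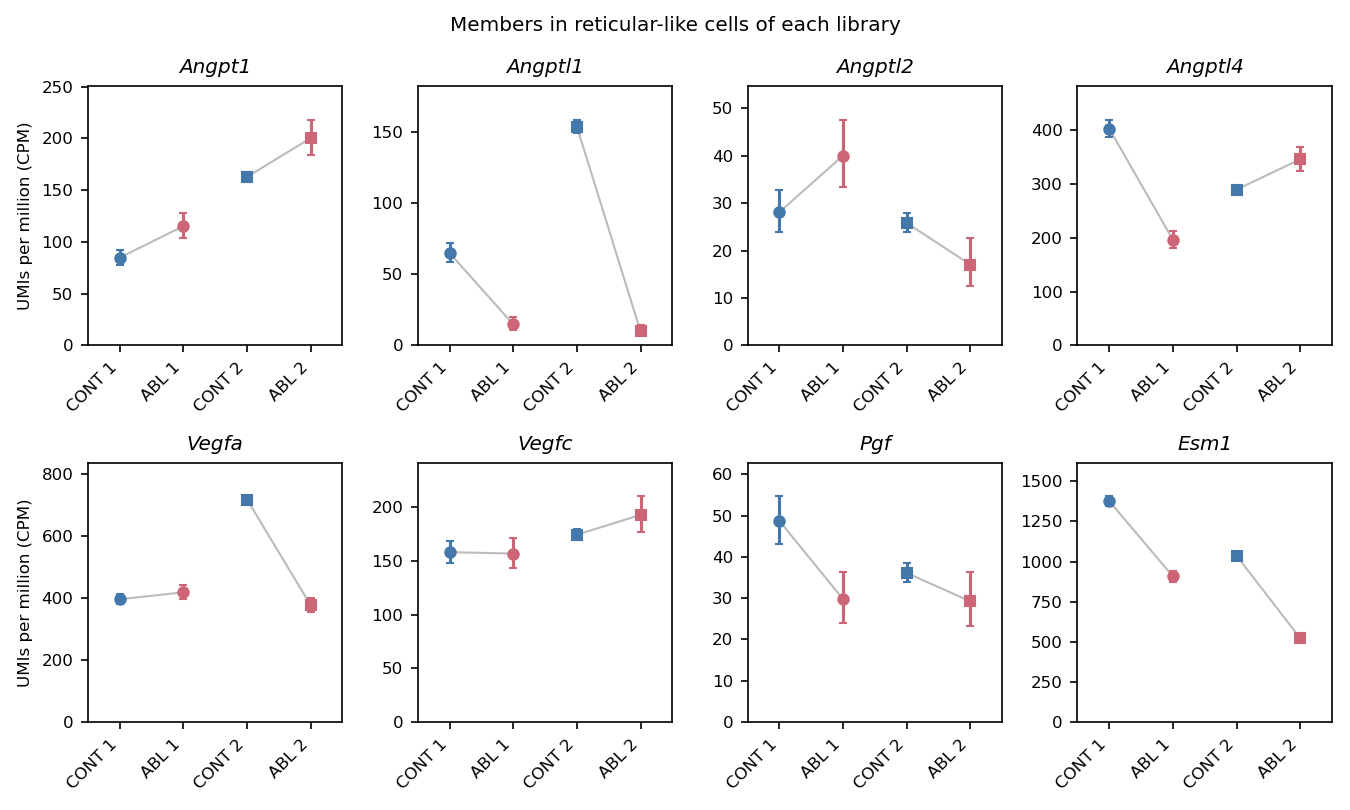
CPM of each member in reticular-like cells of the 4 libraries, with 95% exact Poisson intervals as bars and lines joining CONT (blue) to ABL (red) of a replicate. *Angptl1* drops to 14.9 and 10.0 CPM in ABL, *Esm1* and *Pgf* have lower ABL than CONT values in both replicates, and *Angptl4*, *Vegfa* and *Angptl2* differ in direction between replicates.

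The members differed in the cell classes that held them. These levels are a description, since the classes were built from the same cells. *Angpt1*, *Vegfa*, *Vegfc* and *Esm1* had their highest mean level in reticular-like cells, at 141 ± 51.0, 477 ± 161, 171 ± 16.9 and 960 ± 353 CPM (SD, n = 4 libraries). Pre-osteoblast-like cells, which were found only in replicate 1, came next among cell classes for each of the 4. Within CONT of replicate 1 they were close to reticular-like cells for *Vegfc* (150 CPM from 41 UMIs, against 158) and *Angpt1* (73.4 CPM from 20 UMIs, against 84.8). For *Vegfa* (235 against 396 CPM) and *Esm1* (440 against 1376 CPM) they were further below. Empty droplets also carried these genes, with 178, 197, 639 and 122 CPM of *Vegfa* and 494, 340, 760 and 74.0 of *Esm1*, which limits what low values in other classes can show.

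*Angptl2* was higher in periosteal-like than in reticular-like cells of each library, whereas *Angptl1* was the higher in periosteal-like cells only of the ABL libraries. In periosteal-like cells *Angptl1* stood at 52.3, 118, 120 and 685 CPM, from 18, 51, 63 and 5140 UMIs in 59, 53, 27 and 521 cells. The ABL value was the higher in both replicates, and the log2 ratio was 1.04 in replicate 1 and 2.42 in replicate 2. In replicate 1 the cells came from clusters 6 (led by *Aspn* and *H19*) and 11 (led by *Clec3b*), and in cluster 6 alone *Angptl1* had 16.98 CPM (CONT) and 24.8 (ABL). In replicate 2, most ABL cells were in cluster 4 (345 cells, 681 CPM), where CONT had too few cells for a value. In cluster 8, *Angptl1* stood at 66.8 CPM in 24 CONT cells and 694 in 176 ABL cells. The difference from reticular-like cells was not tested.

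*Angptl2* was at 66.8, 148, 55.1 and 358 CPM in periosteal-like cells. Mural-like cells, found with enough cells only in ABL of replicate 1, had 141 CPM, and chondrocyte-like cells of ABL replicate 2 had 176. Unnamed mesenchymal cells of ABL replicate 2 had 256 CPM of *Angptl2* and 139 of *Angptl1*. Within them, cluster 3, led by *Bglap*, *Msmp* and *Fmod*, had 295 CPM of *Angptl1* and cluster 10, led by *C1qtnf3*, *Postn* and *Scx*, had 89.2.

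*Angptl4* was counted in both stromal and endothelial-like cells. Endothelial-like cells, of which ABL of replicate 1 had none, held 332 CPM in CONT of replicate 1, 277 in CONT of replicate 2 and 393 in ABL of replicate 2, reticular-like cells 308 ± 87.9 (SD, n = 4 libraries) and periosteal-like cells 228 ± 39.8 (SD, n = 4). These classes overlapped. *Pgf* was found at 29.1 and 2.45 CPM in CONT endothelial-like cells and at 196 in those of ABL replicate 2, from 13, 1 and 191 UMIs.

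**Figure D3:**
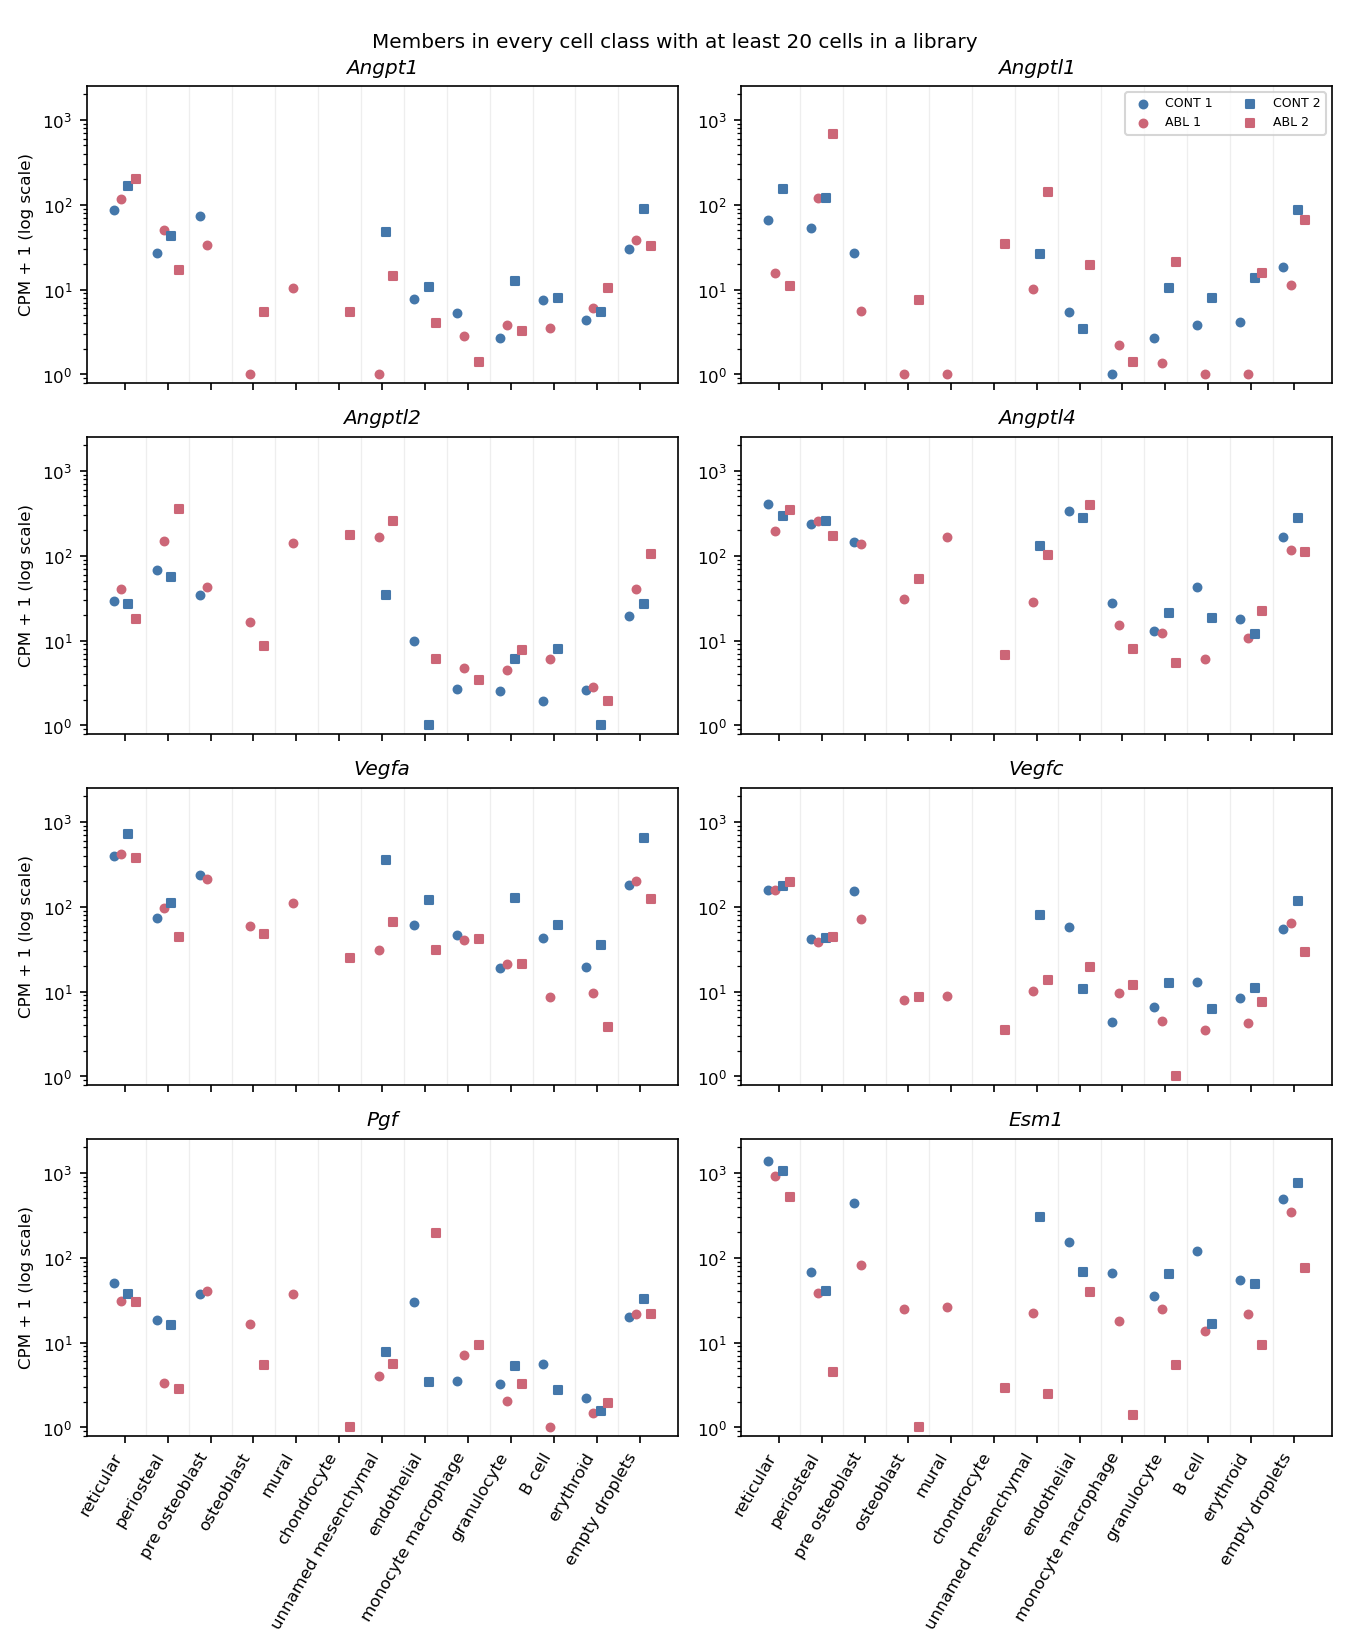
Level of each member (CPM + 1, log scale) in every cell class with at least 20 cells in a library, with replicate 1 as circles, replicate 2 as squares, CONT in blue and ABL in red. *Esm1*, *Vegfa*, *Vegfc* and *Angpt1* are highest in reticular-like cells, *Angptl1* reaches 685 CPM in periosteal-like cells of ABL replicate 2, and empty droplets show the free RNA level.

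Summed over all mesenchymal cells, the levels hold the make-up of the libraries as well, and fewer cells of a type and less RNA per cell cannot be told apart in such sums. Reticular-like cells made up 1165 of 1296, 417 of 681, 1976 of 2053 and 340 of 1809 mesenchymal cells. *Angptl1* was at 60.4, 17.5, 150 and 274 CPM. It was lower in ABL of replicate 1 and higher in ABL of replicate 2, where reticular-like cells supplied 0.385% and periosteal-like cells 73.2% of its mesenchymal UMIs. In CONT, reticular-like cells supplied 93.9% and 98.1%.

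Of the 7 other members, 0 passed in all mesenchymal cells, against 2.14% of 13657 genes tested (1.57% higher and 0.571% lower in ABL). *Esm1* was at 1221, 507, 997 and 56.9 CPM (log2 fold change -2.73 ± 0.87 (SE), edgeR adjusted p = 0.13). *Pgf* was at 45.7, 26.4, 35.0 and 6.09 CPM (-1.70 ± 0.48 (SE), edgeR adjusted p = 0.092). *Angptl2* was at 36.2, 62.7, 26.6 and 247 CPM (1.98 ± 0.62 (SE), edgeR adjusted p = 0.12). These 3 each passed under some other settings. For each of the 7 members, both ABL values lay on one side of both CONT values. *Vegfa*, *Vegfc*, *Angpt1* and *Angptl4* had log2 fold changes from -1.72 to -1.15 with edgeR adjusted p from 0.20 to 0.32.

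In mesenchymal cells outside the reticular-like class, *Esm1* was the only member called, where 3.17% of 10285 genes were called (0.788% higher and 2.38% lower in ABL). Replicate 1 had 175 CPM (CONT) and 39.5 (ABL) and replicate 2 had 163 (CONT) and 2.09 (ABL), from 152, 109, 202 and 48 UMIs. All these values were below those of free RNA in the same library. The comparison sets unlike cells side by side, as pre-osteoblast-like cells gave 120 of the 152 UMIs in CONT of replicate 1 and unnamed cells 180 of the 202 in CONT of replicate 2, whereas 521 of the 1469 cells in ABL of replicate 2 were periosteal-like and 816 unnamed. The log2 fold change was -4.10 ± 0.60 (SE, edgeR adjusted p = 8.9e-09). That p-value rests on 1 residual degree of freedom and on an infinite prior, which set each gene's spread to the trend with expression level. It was 0.90 with no replicate block, and between 1.7e-09 and 0.017 when the clustering was repeated with 4 other random seeds. The reticular marker *Adipoq* moved with it, at 259, 93.5, 341 and 6.76 CPM (-3.49 ± 0.66 (SE), edgeR adjusted p = 2.2e-05), and the log2 ratios of *Cxcl12* were -1.22 and -4.11. Free RNA of *Esm1* and the share of reticular-like cells were also lower in ABL. The part of these in the result was not tested.

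The other members gave no call there. *Angptl1* was at 28.8, 20.7, 62.8 and 305 CPM (log2 fold change 1.09 ± 0.57 (SE), edgeR adjusted p = 0.46) and *Angptl2* at 91.0, 89.2, 44.3 and 274 (1.37 ± 0.56 (SE), edgeR adjusted p = 0.23). For both, ABL of replicate 2 stood above the other 3 libraries, and it had 1469 of the cells. *Vegfc* was at 64.5, 27.2, 56.4 and 21.6 CPM (-1.24 ± 0.45 (SE), edgeR adjusted p = 0.11) and *Angpt1* at 33.4, 17.4, 40.3 and 13.2 (-1.22 ± 0.47 (SE), edgeR adjusted p = 0.16).

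The difference of the ABL effect between reticular-like and other mesenchymal cells, with the same unlike make-up of the latter, was tested directly for the 7 members other than *Angptl1*, and 0 were called, against 0.0169% of 11819 genes. The difference was 3.12 ± 0.94 on the log2 scale for *Esm1* (SE, edgeR adjusted p = 0.47), 1.43 ± 0.47 for *Angpt1* (SE, edgeR adjusted p = 0.49) and 1.16 ± 0.35 for *Vegfc* (SE, edgeR adjusted p = 0.47). With no filter on low counts, *Esm1*, *Angpt1* and *Angptl2* passed.

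**Figure D4:**
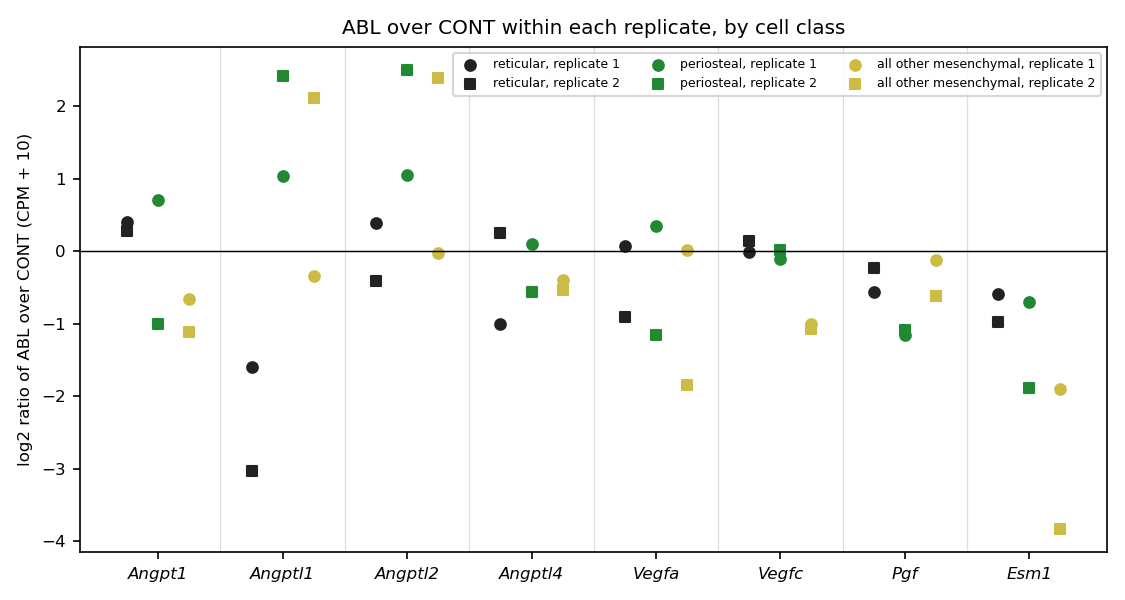
Log2 ratio of ABL over CONT (CPM + 10) for each member within replicate 1 (circles) and replicate 2 (squares) in reticular-like (black), periosteal-like (green) and all other mesenchymal cells (yellow). *Angptl1* is at -1.59 and -3.04 in reticular-like and at 1.04 and 2.42 in periosteal-like cells, and *Esm1* is below 0 in all 3 classes.

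In myeloid cells, which served as cells of the same femurs outside the mesenchyme, 0 of 7 members tested were called, where 0.284% of 10207 genes were called (0.274% higher and 0.0098% lower in ABL), and *Angpt1* was too low for the test. *Esm1* was at 38.7, 21.5, 63.9 and 1.48 CPM (log2 fold change -3.31 ± 1.07 (SE), edgeR adjusted p = 0.35). The class differed in make-up in replicate 2, with 118 granulocytes and 0 monocytes or macrophages in CONT against 107 and 113 in ABL. The ABL values of *Esm1* were the lower ones, as they were in free RNA, and it passed under 1 of 4 other random seeds of the clustering (-2.92, edgeR adjusted p = 0.029).

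The tyrosine kinase receptors of these ligands were high in endothelial-like cells. *Kdr* was at 652, 1293 and 662 CPM there (CONT of both replicates, then ABL of replicate 2), *Flt1* at 403, 1104 and 609, *Flt4* at 282, 598 and 399 and *Tek* at 237, 348 and 182. None of these 4 exceeded 2.60 CPM in reticular-like cells. Of 10 receptor genes, 5 were tested in reticular-like cells and 0 were called. The highest was the VEGF co-receptor *Nrp1*, at 441, 308, 828 and 532 CPM (log2 fold change -0.67 ± 0.36 (SE), edgeR adjusted p = 0.40). The co-receptor *Nrp2* (187 to 297 CPM) and the integrin gene *Itgb1* (373 to 693 CPM) were also abundant in reticular-like cells.

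Of 8 other ligands of the families found in the count matrices, 3 were tested in reticular-like cells, 1 of which rose and 1 fell. For this list and those below, 2.14% of all genes tested in these cells were called higher and 1.81% lower in ABL. *Angpt4*, a Tie2 ligand, rose, with 21.5, 93.3, 17.9 and 72.6 CPM in the libraries (log2 fold change 1.98 ± 0.24 (SE), edgeR adjusted p = 3.7e-09). *Angpt2*, which antagonises Tie2 in many settings, fell, with 50.9, 23.9, 51.0 and 20.4 CPM (-1.30 ± 0.24 (SE), edgeR adjusted p = 1.4e-04). Neither passed with no block (edgeR adjusted p of 0.99 and 0.999951), nor did any other list gene named as rising or falling here. *Angpt2* also fell in all mesenchymal cells (-2.38 ± 0.52 (SE), edgeR adjusted p = 0.034). In mesenchymal cells outside the reticular-like class *Angpt4* was called lower, with 55.3, 41.0, 55.6 and 1.53 CPM (-2.67 ± 0.55 (SE), edgeR adjusted p = 1.4e-04). Its log2 ratio there was -0.36 in replicate 1 and -2.51 in replicate 2, so the low value was that of ABL of replicate 2. As for *Esm1*, that fit set unlike cells side by side and had an infinite prior.

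Of 8 inhibitors of vessel growth, 7 were tested in reticular-like cells and 2 rose, where 2.14% of all genes tested were called higher. *Thbs2*, a thrombospondin, was at 61.5, 169, 50.1 and 175 CPM (log2 fold change 1.54 ± 0.26 (SE), edgeR adjusted p = 1.4e-05). *Col18a1*, which encodes the collagen that holds endostatin, was at 19.4, 40.3, 14.6 and 80.3 (1.72 ± 0.26 (SE), edgeR adjusted p = 2.1e-06). Both ABL values lay above both CONT values for each gene. The log2 ratios of ABL over CONT were 1.32 and 1.62 for *Thbs2* and 0.77 and 1.87 for *Col18a1*. In free RNA they were 1.60 and 1.30 for *Thbs2* and 0.90 and 1.58 for *Col18a1*. The part of free RNA in these rises was not tested. The highest of the list, *Thbs1*, was at 442, 454, 265.03 and 273 CPM and was not called.

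Of 13 genes of the hypoxia response, 11 were tested and 1 fell. This was *Ndrg1*, at 63.4, 29.1, 51.5 and 36.3 CPM (log2 fold change -0.90 ± 0.24 (SE), edgeR adjusted p = 0.015). *Epas1*, the highest of the list, which encodes HIF-2alpha, was at 954, 587, 921 and 399 CPM (-1.05 ± 0.39 (SE), edgeR adjusted p = 0.13). Of 12 other angiogenic factors, 9 were tested and 0 called, and the highest was *Cyr61* at 2082, 2222, 1407 and 833 CPM.

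Of 12 genes of PPAR and glucocorticoid signalling, which were PPAR receptor genes and targets, 11 were tested and 2 rose. *Plin2*, a lipid droplet coat gene, was at 40.4, 56.1, 32.7 and 100 CPM (log2 fold change 0.98 ± 0.25 (SE), edgeR adjusted p = 0.0082). Its log2 ratios of ABL over CONT were 0.39 and 1.37, against 0.54 and 0.97 in free RNA. *Fabp4* was at 42.6, 26.7, 8.31 and 824 CPM and went opposite ways in the replicates (3.04 ± 0.86 (SE), edgeR adjusted p = 0.027). The highest, *Adipoq*, was not called, at 2224, 2035, 1879 and 1970 CPM. Of 6 lipase partners of ANGPTL4, 3 were tested and 1 rose, the fatty acid carrier *Cd36*, with 10, 12, 1 and 69 UMIs in the libraries (edgeR adjusted p = 3.1e-06). *Cd36* and *Fabp4* are endothelial genes here too, at 309, 601 and 252 and at 6764, 4616 and 5873 CPM, and the part of endothelial RNA in their values was not tested. *Lpl* itself, the highest of this list, was at 2555, 2563, 4977 and 4189 CPM and was not called. In all mesenchymal cells, *Cd36* and *Lipc*, a hepatic lipase, rose as well (edgeR adjusted p = 0.048 and 0.043), from at most 7.85 CPM in any library.

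**Figure D5:**
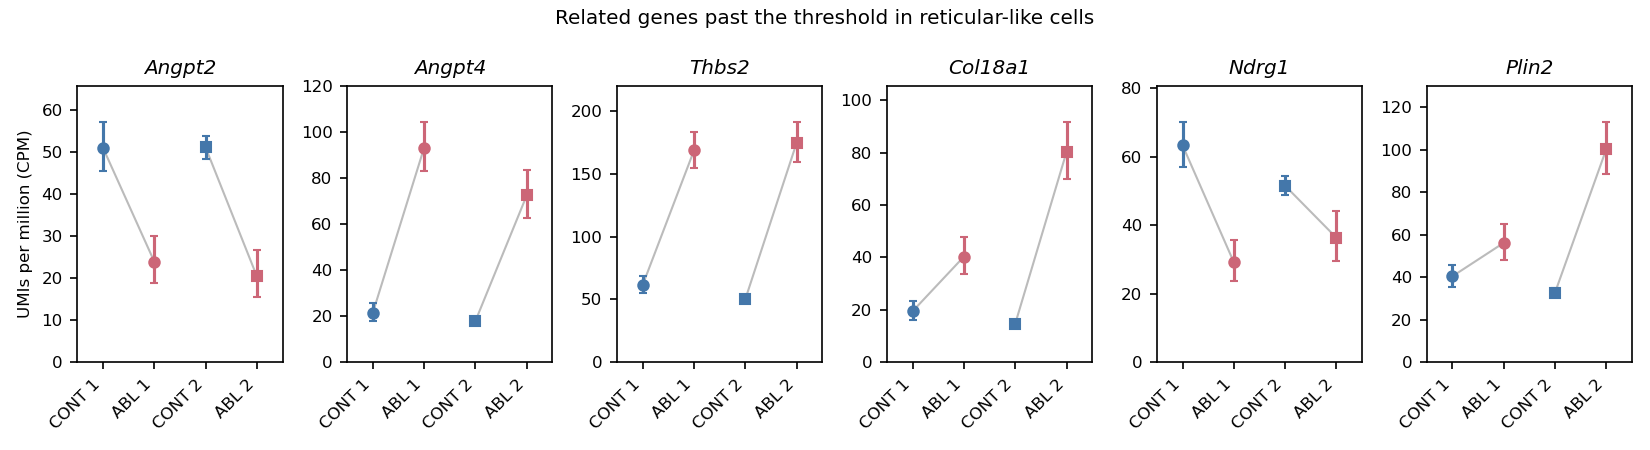
CPM of 6 related genes that passed the threshold in reticular-like cells, with 95% exact Poisson intervals and lines joining CONT to ABL of a replicate. *Angpt4*, *Thbs2*, *Col18a1* and *Plin2* are higher in both ABL libraries, and *Angpt2* and *Ndrg1* are lower.

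The genes whose levels were most like each member were found by Pearson's correlation over 41 sums of class and library, as a description, because sums of a library share depth and free RNA. Among the genes closest to *Angptl1* were *Ecm2* (0.87), *Fhl1* (0.85), *Abi3bp* (0.85) and *Barx2* (0.84). *Angptl2* was closest to *Thbs3* (0.93), *Col16a1* (0.93) and *Tgfb2* (0.92). *Angptl4* was closest to the basement membrane genes *Nid1* (0.94), *Col4a2* (0.93) and *Col4a1* (0.93).

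*Esm1* was closest to the adipokine gene *Adipoq* (0.96), *Gdpd2* (0.95) and *Kng1* (0.95). *Angpt1* was closest to *Ms4a4d* (0.90), *Il7* (0.89) and *Marc1* (0.89), and *Vegfc* to *Il7* (0.91), *Shroom3* (0.91) and *Fbln5* (0.91). *Vegfa* was closest to *Csf1* (0.93), *Dlg5* (0.92) and *S1pr3* (0.92), and *Pgf* to *Sh3bp4* (0.76), *Tspan12* (0.76) and *Cdc42ep1* (0.76), with the lowest values of the 8 members.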

How the data were processed

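The authors sorted tdTomato+ cells from CONT and ABL femurs and deposited raw UMI counts for every barcode (737280 or 6794880), with no cell filter, from Cell Ranger (software version 3.0.0 in the replicate 2 headers) on mm10, per the labels.

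Barcodes were kept as cells by the gene and mitochondrial limits the study used (500 genes and 20% for version 2, 1000 genes and 15% for version 3) and by a floor on depth, 1/10 of the UMI number at the 99th percentile when the 3000 deepest barcodes are ranked. Doublets were not removed. Scrublet (scanpy 1.11.5) marked 0.480% and 0.0832% of cells in ABL replicate 1 and CONT replicate 2, too few to have worked there. Cells were clustered in Seurat 5.3.0 (2000 variable genes, 30 components, resolution 0.8), mesenchymal cells after CCA integration within replicates, and clusters were named from marker lists by a score whose thresholds were set after the data were seen. Counts were summed per library and class and tested in edgeR 4.0.16 (R 4.3.3; quasi-likelihood test, TMM, filter on low counts, Benjamini-Hochberg, threshold 0.05) with the replicate as a block. Intervals are 95% exact Poisson and cover counting error only.

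The block follows the contralateral design. Deviations from the condition means correlated within replicates (0.75, 0.36, 0.41 and 0.26 in reticular-like, all mesenchymal, other mesenchymal and myeloid cells), which includes shared chemistry. The sexes show that CONT and ABL of replicate 2 did not come from the same set of mice, so the block does not pair mice there. In replicate 1 the sex-linked shares also differed between CONT and ABL, so matched mice are not shown there. An exact permutation test of 2 against 2 libraries cannot give a two-sided p under 0.333. The study calls the replicates biological, and the labels only number them.

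The members, the related lists and the tests were chosen with earlier results of these data known. Named genes are the members, list genes past the threshold in reticular-like or all mesenchymal cells, the highest gene of each list in reticular-like cells, and the 3 (for *Angptl1* 5) genes most like each member among those with at least 20 CPM in 1 sum (pseudocount 10), of which 1 is not reported here. The fits were tested on simulated data. Alternatives were no block, no TMM, DESeq2 1.42.0, no low-count filter, other cell filters and subsets, thinning, resolutions, left-out libraries, and, chosen after seeing the data, a robust prior, 4 random seeds and resolutions for other mesenchymal cells.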

Additional observations from a re-analysis of the deposited data

Results flagged for a closer look

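A member's ratio is listed here only where both replicates had one sign in reticular-like cells and the opposite sign in the compared class. The compared classes were periosteal-like and all other mesenchymal cells. Agreement of signs is therefore the rule of choice and not a finding. The log2 ratio of ABL over CONT of *Angptl1*, averaged over both replicates, was 4.05 lower in reticular-like than in periosteal-like cells (-2.31 against 1.73, a difference of -4.05). This difference was not tested, and the low ABL values of reticular-like cells that chose the group are part of it. The periosteal-like ratio mixes clusters, and cluster 6 of replicate 1 alone had 16.98 CPM (CONT) and 24.8 (ABL).

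For *Angpt1*, listed by the same rule of signs, the ratio was 0.34 in reticular-like and -0.89 in all other mesenchymal cells, a difference of 1.23. The test of the difference across all genes did not pass (edgeR adjusted p = 0.49).

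*Pgf* stood at 196 CPM in endothelial-like cells of ABL replicate 2, a class that no test used because ABL of replicate 1 had no such cells, against 29.1 and 2.45 CPM in CONT. It was picked from the members because its Poisson interval there lay above those of both CONT libraries, so that gap is a rule of choice. After thinning, 13.2% of these 114 cells had a *Pgf* UMI, against 1.14% of 88 CONT cells in replicate 1 and 0% of 25 in replicate 2. In replicate 2 the blood cell genes *S100a8* and *Ptprc* also differed in this class (log2 ratio of ABL over CONT 6.03 and 1.09), and their part was not tested.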

How the results depend on the processing

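*Angptl1* was lower in ABL reticular-like cells under every alternative run, with log2 fold changes from -3.48 to -2.82, and from -3.76 to -2.48 when 1 library was left out. These alternatives reuse the counts that chose the gene and add no separate support for its low level. Without replicate 2 the value was -1.59. Values without a replicate, here and below, are the log2 ratio of the other replicate with a pseudocount of 10 CPM. They are not fits and not on the scale of the fitted fold changes. The numbers of genes called depended strongly on the processing. With no replicate block, 0 genes were called in each of the 4 comparisons of ABL with CONT, higher or lower, and *Angptl1* in all mesenchymal cells turned to 0.49. In the following, calls are given as higher and lower in ABL. In reticular-like cells, where 245 and 208 genes were called, DESeq2 called 86 and 77, thinned cells 120 and 90, and cells with a Y-linked and no *Xist* UMI 38 and 17, and leaving out 1 library (with no block) left 0 to 3 and 0 to 1. In all mesenchymal cells, with 214 and 78, the robust prior called 527 and 437, DESeq2 388 and 230, the study's filter alone 368 and 184, cells with a tdTomato UMI 429 and 233, thinned cells 372 and 213, Y-linked cells 468 and 442, seed 4 called 8 and 1 and seed 5 called 340 and 158. Leaving out 1 library gave 0 to 517 and 0 to 274 there, the highest without ABL replicate 1. In other mesenchymal cells, with 81 and 245, no TMM gave 23 and 43, DESeq2 24 and 65, seed 4 gave 30 and 134, and leaving out 1 library 0 to 85 and 0 to 206 (9 and 14 without ABL replicate 2). *Esm1* lost its call there without CONT replicate 1, CONT replicate 2 or ABL replicate 2. In myeloid cells, with 28 and 1, no TMM called 76 higher, DESeq2 2 lower, no filter on low counts 65 and 7, seed 2 called 298 and 70, seed 4 called 53 and 5, and leaving out 1 library gave 0 to 30 and 0 to 7 (6 and 0 without ABL replicate 2). For the difference between classes, no TMM left 0 genes with a higher effect in reticular-like cells, no filter gave 326 higher and 99 lower and DESeq2 60 and 5. In all mesenchymal cells, *Angptl2* passed with the robust prior (edgeR adjusted p = 0.012), thinned cells (0.0016) and Y-linked cells (0.017), *Pgf* with the robust prior (0.0048), tdTomato cells (0.033) and thinned cells (0.018), and *Esm1* with the robust prior (0.019) and Y-linked cells (0.011), and DESeq2 passed *Angptl2* and *Esm1*. Without thinning, the mean share of reticular-like cells with a UMI was 41.8% (CONT) and 7.82% (ABL) for *Angptl1* and 96.7% and 85.0% for *Esm1*. Some log2 fold changes turned sign. For other mesenchymal and myeloid cells, values of a single replicate are not listed. In reticular-like cells these were *Vegfc* (0.067 with no TMM, 0.0011 with the study's filter alone, 0.016 with seed 4, 0.16 without ABL replicate 1, 0.051 without CONT replicate 2), *Angptl2* (0.082 thinned, 0.0094 without CONT replicate 1, 0.42 without ABL replicate 2) and *Angpt1* (-0.17 without CONT replicate 1, -0.26 without ABL replicate 2). Without replicate 2, *Vegfa* (0.077) and *Angptl2* (0.39) also turned in reticular-like cells. Without replicate 1, *Angptl4* (0.25) and *Vegfc* (0.14) did. In all mesenchymal cells *Angptl1* was at 1.42 without ABL replicate 1, 1.35 without CONT replicate 2 and 0.83 without replicate 1, and moved to -1.35 without replicate 2. In other mesenchymal cells *Pgf* was at 0.37 without CONT replicate 1 and 0.40 without ABL replicate 2, and *Angptl1* at -1.10 without ABL replicate 2 and -0.017 with seed 4. In myeloid cells *Angptl2* was at 0.39 with no TMM, 0.60 without CONT replicate 2 and 0.37 with seed 2, *Pgf* at -0.027 with DESeq2, -0.29 without CONT replicate 1, -0.46 without ABL replicate 2 and -0.055 with seed 4, and *Angptl1* at 0.42 without CONT replicate 2. The difference for *Angptl4* was 0.12 with no TMM. The cause of these changes was not tested. Of the values of single genes under an alternative, 517 were counted as unchanged. For tested values this meant the same direction and the same side of the threshold. For a left-out replicate and for untested *Angptl1* values, it meant lying within the SD of the 2 replicates' log2 ratios from the main value. A change of sign could thus be counted as unchanged where a replicate was left out. Clustering with no integration could not be fitted, because ABL replicate 2 then had 0 reticular-like cells. The 4 seeds, the robust prior and the resolutions for other mesenchymal cells were chosen after seeing the data. Each comparison has 2 libraries per condition and chemistry tied to replicate. Those of ABL with CONT within a class have 1 residual degree of freedom with the replicate block. Thinning to a lower depth also changed the numbers of calls, and the parts of library number and depth in these limits were not compared.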
